A study of Mus musculus with 11 samples.

Results

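Cathepsins were examined in mouse bone marrow cells that had acquired 2 leukemia oncogenes in different orders. The 10 genes were taken by mouse symbol, Ctsa, Ctsb, Ctsd, Ctse, Ctsf, Ctsh, Ctsk, Ctsl, Ctss and Ctsz, and matched through Ensembl identifiers to 10 of the 51912 genes counted. Each of the 10 passed the filter on low counts, as did 15703 genes in all. The samples were 11 RNA-seq libraries of lineage-negative, doubly fluorescent cells sorted from transduced bone marrow of C57BL/6 strain. The 4 CSF3R-only samples carried the constitutively expressed human receptor mutant CSF3R T618I in a GFP vector together with an empty inducible vector. The 3 CSF3R-first samples carried constitutive CSF3R T618I and an inducible CEBPA V314VW, a mutant of the myeloid transcription factor C/EBP alpha. The 4 CEBPA-first samples carried constitutive CEBPA V314VW and an inducible CSF3R T618I. The inducible gene came on only after Cre recombination, for which the study used marrow of Rosa26 ERT2-Cre mice, and all 3 groups, CSF3R-only included, were held for 48 h after sorting in cytokine-free medium with 4-hydroxytamoxifen. The study's mice were females of 6 to 20 weeks. No group carried CEBPA V314VW alone or empty vectors alone, so that each level is relative to cells that already expressed CSF3R T618I. The labels number the replicates by letter without saying whether they came from separate animals or cultures, so p-values measure the spread between these samples, which may be technical.

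Cathepsins are proteases that are made as inactive precursors, carry mannose 6-phosphate tags to endosomes and lysosomes, and are activated there at low pH. Ctsd and Ctse are aspartic proteases, Ctsa is a serine carboxypeptidase, and the other members are cysteine proteases of the papain family. Macrophages, neutrophil precursors and dendritic cells use them to degrade engulfed protein, and dendritic cells and macrophages use several of them to cut antigens and the invariant chain for display on MHC class II. Ctse differs from its relatives in residing mainly in endosomes and the endoplasmic reticulum, and in being restricted to few tissues, among them blood cells and stomach.

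RefSeq promoter windows of 300 bases (250 before to 50 after a start site, GRCm38.p6) were given for 7 of the 10 members, 8 windows in all because Ctsa has 2 start sites, and none was given for Ctsb, Ctse or Ctsh. The palindromic E-box CACGTG, the core of the element bound by the lysosomal regulators TFEB and TFE3, was found in 4 of the 8 windows, those of Ctsd, Ctsf and Ctsl and the second of Ctsa, against 7.17% of all 32544 promoter windows of that length. The first window of Ctsa held none. These 4 windows are printed because 3 of the genes were lower in CEBPA-first while Ctsf was not, and the window of Ctss, the cysteine cathepsin that fell most after Ctsb and lacks the E-box, is printed beside them. Capitals mark CACGTG, and each window reads 5′ to 3′ along the gene's strand.
Ctsd, chr7:142387778-142388077, minus strand: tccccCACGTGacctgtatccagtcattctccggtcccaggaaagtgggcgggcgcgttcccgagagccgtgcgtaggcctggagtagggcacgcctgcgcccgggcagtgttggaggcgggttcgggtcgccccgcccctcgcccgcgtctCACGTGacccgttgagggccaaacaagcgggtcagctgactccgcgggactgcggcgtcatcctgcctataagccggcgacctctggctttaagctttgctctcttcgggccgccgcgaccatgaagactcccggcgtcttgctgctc
Ctsa, second start site, chr2:164833523-164833822, plus strand: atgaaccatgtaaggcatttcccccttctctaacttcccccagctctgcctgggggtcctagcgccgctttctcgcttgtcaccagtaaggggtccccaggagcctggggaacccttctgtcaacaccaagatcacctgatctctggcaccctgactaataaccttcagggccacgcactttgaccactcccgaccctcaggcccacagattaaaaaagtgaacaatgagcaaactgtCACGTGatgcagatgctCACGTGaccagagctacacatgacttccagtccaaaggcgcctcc
Ctsl, chr13:64370471-64370770, minus strand: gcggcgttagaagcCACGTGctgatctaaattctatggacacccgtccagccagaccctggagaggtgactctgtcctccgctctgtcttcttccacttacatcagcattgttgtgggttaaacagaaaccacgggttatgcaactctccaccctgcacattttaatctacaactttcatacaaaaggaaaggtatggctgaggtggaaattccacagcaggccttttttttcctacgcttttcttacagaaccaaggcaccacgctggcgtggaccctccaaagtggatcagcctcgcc
Ctsf, chr19:4854915-4855214, plus strand: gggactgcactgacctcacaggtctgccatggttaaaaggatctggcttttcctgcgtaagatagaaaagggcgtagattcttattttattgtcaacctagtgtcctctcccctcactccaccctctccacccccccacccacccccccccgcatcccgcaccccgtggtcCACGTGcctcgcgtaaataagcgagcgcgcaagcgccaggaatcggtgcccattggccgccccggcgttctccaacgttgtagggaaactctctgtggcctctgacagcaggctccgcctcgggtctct
Ctss, chr3:95526536-95526835, plus strand: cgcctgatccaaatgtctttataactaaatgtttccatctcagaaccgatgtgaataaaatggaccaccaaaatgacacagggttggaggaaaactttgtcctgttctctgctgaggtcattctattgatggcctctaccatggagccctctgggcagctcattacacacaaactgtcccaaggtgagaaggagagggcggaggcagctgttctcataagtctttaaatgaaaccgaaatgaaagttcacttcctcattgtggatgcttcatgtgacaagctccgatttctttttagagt
In Ctsd the E-boxes began 245 and 98 bases upstream of the start site, in Ctsa 1 began 12 bases upstream and the other 6 bases downstream, in Ctsf 79 bases upstream and in Ctsl 236 bases upstream. The longer form TCACGTG, which contains CACGTG, was searched on both strands and found in 2 of the 8, the second window of Ctsa and that of Ctsd, against 3.79% of all windows. TTGCNNAA, a C/EBP-type pattern searched on both strands, was found in 2 of the 8, those of Ctsk and Ctsl, against 10.8% of windows. GAGGAA, the core bound by PU.1, searched on both strands, was found in 2 of the 8, those of Ctsk and Ctss, against 28.1% of windows. TTCNNNGAA, a STAT-type palindrome, was found in none of the 8 windows, against 8.33% of windows. A match describes letters in the window and a missing match says only that they are not in it.

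Libraries held 47905747 to 72268346 counts, and the members' levels are given as CPM, counts scaled to a common library size, after TMM normalization for differences in library composition. A count of 0 would allow up to 3 counts, or 0.0383 to 0.0648 CPM, an allowance for counting error only. Among markers of mature cells, Cd3e, Cd8a and Ncr1 were at 0 in all 11 samples and the B cell list summed to 3.26 to 6.81 CPM, whereas markers of maturing neutrophils summed to 24300 to 29700 CPM (CSF3R-only), 13600 to 23600 CPM (CSF3R-first) and 6130 to 8190 CPM (CEBPA-first). The 10 monocyte and macrophage markers summed to 2940 to 3740, 1660 to 2850 and 957 to 1330 CPM in the same order. Relative to CSF3R-only, 9 of the 10 were lower in CEBPA-first and 1, Ly6c2, was higher (36.6% and 35.4% of all tested genes). The eosinophil sum ran from 224 to 334, 54.6 to 126 and 27.3 to 33.7 CPM, the megakaryocyte sum from 841 to 1150, 328 to 507 and 110 to 154 CPM, the erythroid sum from 237 to 345, 104 to 327 and 25.6 to 39.6 CPM, and the osteoclast sum from 127 to 153, 105 to 129 and 81.1 to 88.1 CPM. Nearly all of the osteoclast sum was Nfatc1. Of that list's 4 tested genes, 3 were lower in CEBPA-first against CSF3R-only (36.6% of all tested genes). Ocstamp was higher (35.4% of all tested genes), at 0.372 CPM in CSF3R-only and 0.781 CPM in CEBPA-first (adjusted p 0.012). The mast cell and basophil sum ran from 1780 to 2630, 1030 to 1330 and 1020 to 1380 CPM. Of its 6 genes, 3 were lower in CEBPA-first against CSF3R-only and 1, Fcer1a, higher (36.6% and 35.4% of all tested genes). The dendritic cell sum ran from 13.8 to 16.7, 13.1 to 13.9 and 8.45 to 9.96 CPM. Of its 4 tested genes, 2 were lower in CEBPA-first against CSF3R-only and 1, Flt3, higher (36.6% and 35.4% of all tested genes). The stem and progenitor sum ran from 1300 to 1510, 1060 to 1220 and 888 to 1050 CPM, mostly Ptprc. Of that list's 7 genes, 4 (Kit, Myb, Hlf and Mecom) were higher in CEBPA-first against CSF3R-only and 3 lower. Of all tested genes, 35.4% were higher and 36.6% lower. Myb averaged 108 CPM in CSF3R-only and 331 CPM in CEBPA-first. The T and NK cell sum ran from 0.174 to 0.54, 0.223 to 0.503 and 0.536 to 0.922 CPM. The B cell sum ran from 3.59 to 4.51, 3.26 to 4.23 and 5.81 to 6.81 CPM, higher in CEBPA-first than in every other sample. The neutrophil, monocyte and macrophage, eosinophil, megakaryocyte, erythroid, osteoclast, mast cell and basophil, dendritic cell, and stem and progenitor sums all lay lower in CEBPA-first samples than in every CSF3R-only sample, as most cathepsins described here did, and their part in each result was not tested. In bulk RNA, fewer cells of a type and less RNA per cell cannot be told apart.

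The question for the cathepsins was whether their transcript levels differed with the order of the oncogenes and from CSF3R-only cells. CEBPA-first and CSF3R-only differ in whether CEBPA V314VW was present at all. CEBPA-first and CSF3R-first also differ in which oncogene the constitutive vector carried and in how long each was expressed. Order cannot be told apart from these in this design. Relative to CSF3R-only, 9 of the 10 members were lower in CEBPA-first cells, by 1.36-fold (Ctsz) to 3.66-fold (Ctsd), and only Ctsf did not pass the test. Summed over the 10 members, transcript levels were 3077 ± 458 CPM (SD, n = 4) in CEBPA-first, 5576 ± 1484 CPM (n = 3) in CSF3R-first and 8435 ± 701 CPM (n = 4) in CSF3R-only, given as a description without a test. The background was high, since 72% of all tested genes passed the same test (adjusted p under 0.05, the quasi-likelihood test of edgeR, Benjamini-Hochberg adjusted) with 36.6% lower and 35.4% higher. At a threshold that also asked for a 2-fold difference, 6 members were lower (Ctsb, Ctsd, Ctse, Ctsh, Ctsk and Ctss), against 19% of all genes lower. The median log2 fold change of the members was -1.26, beside -0.00446 over all tested genes. All CEBPA-first samples lay below all CSF3R-only samples for 9 members, against 34.5% of genes. The members and the gene lists below were chosen with earlier results of these data known. The all-gene shares beside their counts are therefore descriptions and not tests of enrichment.

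Between the orders of acquisition, 7 members were lower in CEBPA-first than in CSF3R-first, 1 was higher (Ctsf) and 2 did not pass the test (Ctsk and Ctsl). Of all genes, 48.3% passed in this comparison, 24.3% lower and 24% higher. Only Ctsb and Ctsd were lower by 2-fold or more, against 10.3% of genes. The count of members called with a 2-fold difference in either direction, 2 here, was 1 without CSF3R-first A, 4 without CSF3R-first C and 0 when edgeR's glmTreat tested against a 2-fold difference. The members' median log2 fold change was -0.599, beside 0.000524 over all genes, and the groups did not overlap for 8 members, against 52.2% of genes, with CEBPA-first below in 7 (24.8% of genes) and above in 1 (27.4% of genes). CSF3R-first in turn was lower than CSF3R-only for 8 members, with 2 not passing (Ctsk and Ctsz), against 42.7% of all genes called, 21.1% lower and 21.6% higher. None of the 8 differed by 2-fold or more, against 4.53% of genes called lower at that threshold, whereas 1 member did without CSF3R-only A, without CSF3R-first C or with the replicate block and 2 did without CSF3R-first A. The median was -0.623, beside -0.0218 over all genes. All CSF3R-first samples lay below all CSF3R-only samples for 5 members, against 21.4% of genes. The 3 comparisons share samples, so each member's changes in them are not independent of one another.

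**Figure D1:**
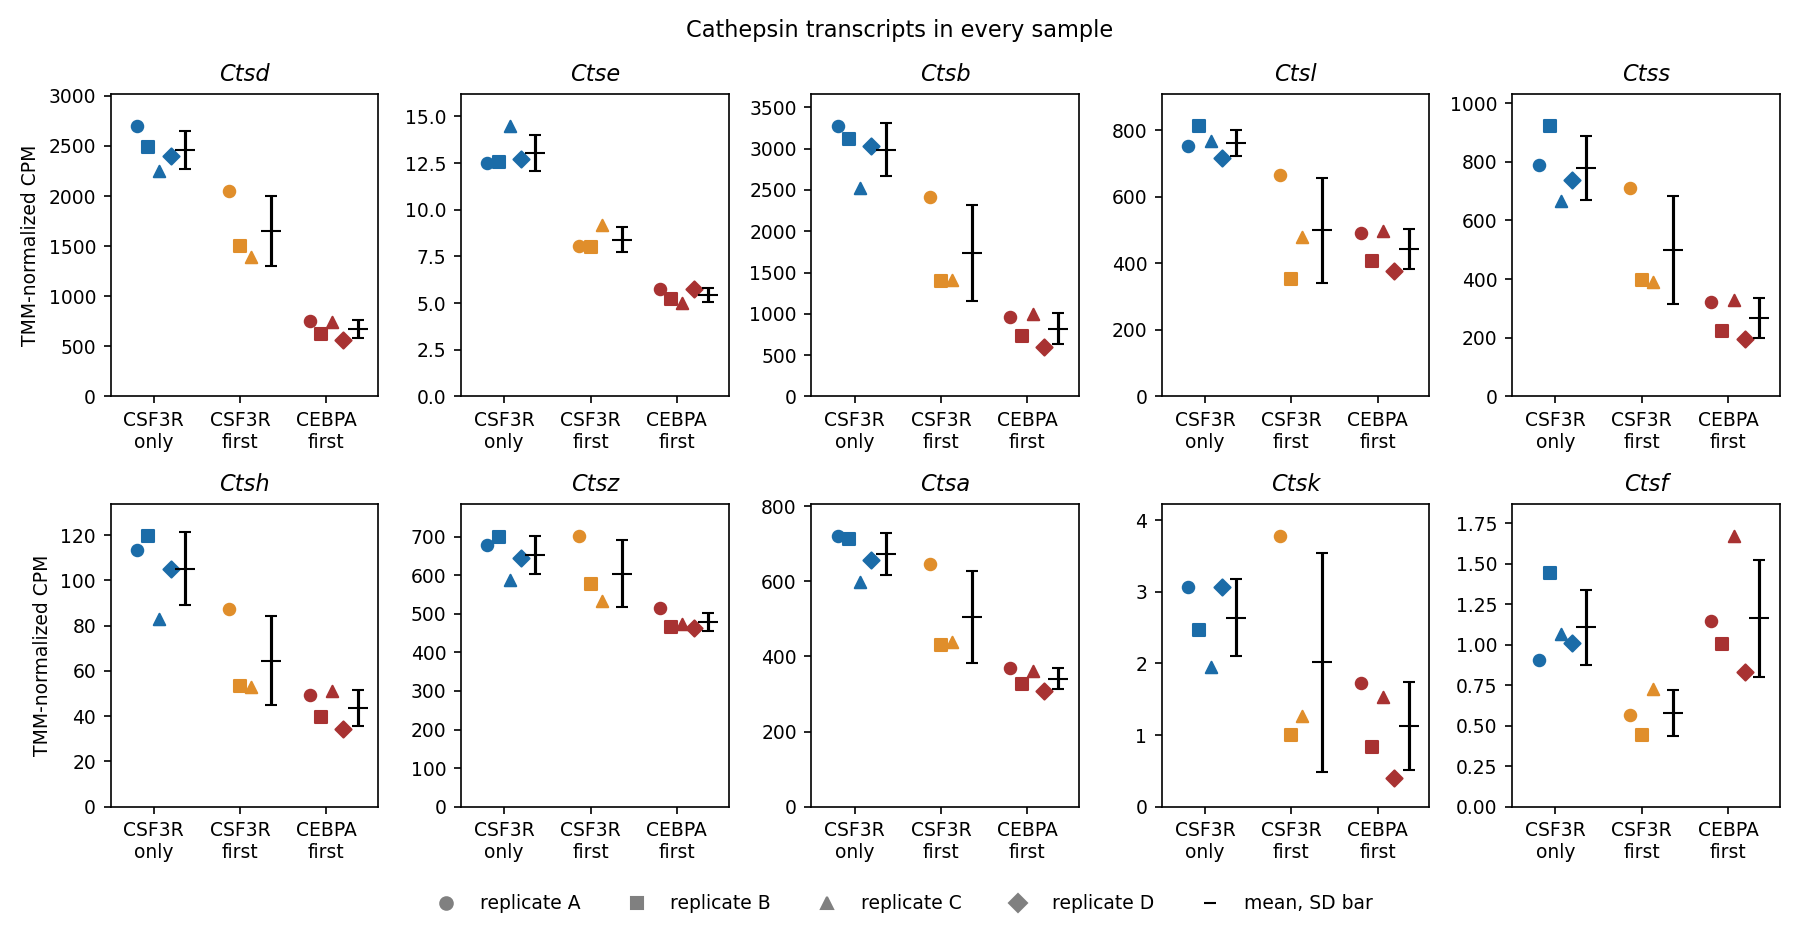
TMM-normalized CPM of the 10 cathepsins (vertical axes from 0, a scale for each gene) in every CSF3R-only, CSF3R-first and CEBPA-first sample, with replicate letters as symbols and the group mean ± SD in black. The means of Ctse were 13.1, 8.40 and 5.43 CPM with narrow SDs, replicate A of CSF3R-first lay highest of its group for 8 genes, and Ctsf was lowest in CSF3R-first.

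Means were highest in CSF3R-only, intermediate in CSF3R-first and lowest in CEBPA-first for 9 of the 10 members, an order shown by 38.9% of all tested genes. For Ctsb, Ctsd and Ctse the 3 groups were separated in that order without any overlap of samples, which held for 13.4% of tested genes. In the other 6 of the 9 at least 1 pair of groups overlapped.

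Ctsd (ENSMUSG00000007891), the main aspartic protease of lysosomes, lies at chr7:142375911-142388038 on the minus strand (GRCm38) with 9 exon blocks. Its level was 2699.9, 2492, 2252 and 2395 CPM in CSF3R-only replicates A to D, 2053, 1505 and 1396 CPM in CSF3R-first replicates A to C, and 753, 626, 746 and 563 CPM in CEBPA-first replicates A to D. No sample of any group reached into the next group. Ctsd fell by 1.87 on the log2 scale in CEBPA-first against CSF3R-only (SE 0.13, adjusted p 7.1e-08) and by 1.30 against CSF3R-first (SE 0.14, adjusted p 1.3e-05). CSF3R-first against CSF3R-only fell by 0.57 (SE 0.14, adjusted p 0.0057). Ctsd had the largest difference of the members in both comparisons of CEBPA-first, although against CSF3R-only its lead over Ctsb was smaller than either SE. Its counts carry a limit, because only 65.6% of its exon bases lie outside another gene, the rest being shared with Gm49369 on the same strand, and 809 of the 2127 bases of its longest transcript are near-identical to that gene.

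Ctse (ENSMUSG00000004552, chr1:131638306-131675505, plus strand, 10 exon blocks), the endosomal aspartic protease, was present at low level, with 260 to 802 counts per library. CSF3R-only replicates A to D stood at 12.5, 12.5, 14.5 and 12.7 CPM, CSF3R-first A to C at 8.04, 7.99 and 9.18 CPM, and CEBPA-first A to D at 5.73, 5.23, 4.99 and 5.76 CPM. The 3 groups did not overlap and each was narrow, with a coefficient of variation of 7.39%, 8.03% and 6.98%. Against CSF3R-only, Ctse was 2.40-fold lower in CEBPA-first (log2 fold change -1.26, SE 0.09, adjusted p 7.8e-08) and 1.55-fold lower in CSF3R-first (-0.63, SE 0.10, adjusted p 0.00037). CEBPA-first was 1.55-fold below CSF3R-first (-0.63, SE 0.10, adjusted p 0.00025). An exact two-sided permutation test of the log2 CPM gave p = 0.0286 in each of these comparisons, the smallest that 70 splits of 4 against 4 (2 of 70) or 35 splits of 4 against 3 (1 of 35) allow. Among the other members, calls by edgeR that did not reach 0.05 in this exact permutation test were those of Ctsa (p = 0.0571), Ctss (p = 0.0571) and Ctsh (p = 0.0857) in CSF3R-first against CSF3R-only and those of Ctsf and Ctsh between the orders (p = 0.0571 each). Without any 1 of the 11 samples, the difference of CEBPA-first from CSF3R-only ranged from -1.29 to -1.21. No exon base of Ctse overlaps another gene and no stretch of its longest transcript is near-identical to another gene.

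Ctsb (ENSMUSG00000021939, chr14:63122462-63145923, plus strand), a cysteine endopeptidase and peptidyl dipeptidase, held the most counts of the 10 members in each sample except CSF3R-first B. There Ctsd held 74785 counts and Ctsb 69583. CSF3R-only A to D reached 3274, 3114, 2526 and 3034 CPM, CSF3R-first A to C 2411, 1400.2 and 1412 CPM, and CEBPA-first A to D 957, 735, 993 and 603 CPM. The groups were separate, although CSF3R-first A stood close to the lowest CSF3R-only sample. Ctsb was 3.63-fold lower in CEBPA-first against CSF3R-only (log2 fold change -1.86, SE 0.20, adjusted p 2.1e-06) and 2.12-fold lower than in CSF3R-first (-1.08, SE 0.20, adjusted p 0.001), the latter being -0.771 without CSF3R-first A and -0.997 with the replicate letter as a block. The fall of CSF3R-first against CSF3R-only was smaller (-0.78, SE 0.21, adjusted p 0.0096) and did not pass without replicate B of CSF3R-first (-0.64, adjusted p 0.052). Of its exon bases, 87.2% lie outside other genes, the rest overlapping Fdft1 on the opposite strand.

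Ctsl (ENSMUSG00000021477, chr13:64359337-64370890, minus strand), a lysosomal endopeptidase that also trims the invariant chain in thymic epithelium, was not separated between the orders. Its levels were 752, 813, 768 and 716 CPM in CSF3R-only A to D, 665, 353 and 479 CPM in CSF3R-first A to C, and 491, 408, 497 and 378 CPM in CEBPA-first A to D. Both other groups lay below every CSF3R-only sample, whereas CSF3R-first spanned the whole CEBPA-first range. CEBPA-first was 1.72-fold below CSF3R-only (log2 fold change -0.78, SE 0.16, adjusted p 0.00052) and CSF3R-first 1.53-fold below it (-0.61, SE 0.17, adjusted p 0.011). The 2 orders differed by -0.17 (SE 0.17, adjusted p 0.43), a value that became 0.0973 without CSF3R-first A and -0.362 without CSF3R-first B (adjusted p 0.045). Ctsl shares exon bases with Gm47123 and Gm49230, and 73.2% lie outside them.

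Ctss (ENSMUSG00000038642, chr3:95526786-95556403, plus strand) and Ctsk (ENSMUSG00000028111, chr3:95499256-95509362, plus strand) are neighbours, 17423 bases apart. Ctss cuts the invariant chain in antigen-presenting cells, and Ctsk is the collagen-degrading protease of osteoclasts. Ctss stood at 791, 922, 666 and 738 CPM in CSF3R-only A to D, 712, 397 and 388 CPM in CSF3R-first A to C, and 322, 225, 329 and 195 CPM in CEBPA-first A to D. CSF3R-first A lay inside the CSF3R-only range, and CEBPA-first lay below all other samples. Ctss was 2.91-fold lower in CEBPA-first against CSF3R-only (log2 fold change -1.54, SE 0.21, adjusted p 2.4e-05) and 1.87-fold lower than in CSF3R-first (-0.90, SE 0.22, adjusted p 0.0057), the latter being -0.549 without CSF3R-first A. CSF3R-first against CSF3R-only gave -0.64 (SE 0.23, adjusted p 0.038), a call that DESeq2 did not make (adjusted p 0.054) and that was lost without CSF3R-only A, B or D or without CSF3R-first B or C (adjusted p 0.056 to 0.16).

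Ctsk was detected at 31 to 194 counts, or 3.07, 2.46, 1.96 and 3.07 CPM in CSF3R-only A to D, 3.77, 1.01 and 1.26 CPM in CSF3R-first A to C and 1.73, 0.835, 1.54 and 0.396 CPM in CEBPA-first A to D. CSF3R-first A held the highest value of all 11 samples and CSF3R-first B and C lay within the CEBPA-first range. CEBPA-first was lower than CSF3R-only (log2 fold change -1.25, SE 0.45, adjusted p 0.024), without overlap of samples. The call was lost without CSF3R-only A or D or CEBPA-first B or D (adjusted p 0.053 to 0.067). Neither comparison of CSF3R-first passed (-0.40, adjusted p 0.53 against CSF3R-only, and -0.85, adjusted p 0.17, for CEBPA-first against it). Without CSF3R-first A the first of these was -1.21 (adjusted p 0.036) and the second -0.0392.

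Ctsf (ENSMUSG00000083282, chr19:4855130-4860918, plus strand), a cysteine protease also able to process the invariant chain in macrophages, was the exception among the 10 members. At 22 to 87 counts per library it stood at 0.907, 1.44, 1.07 and 1.01 CPM in CSF3R-only A to D, 0.568, 0.443 and 0.727 CPM in CSF3R-first A to C and 1.15, 1.01, 1.67 and 0.830 CPM in CEBPA-first A to D. All 3 CSF3R-first samples lay below all others, and the other groups overlapped. Ctsf was 1.98-fold higher in CEBPA-first than in CSF3R-first (log2 fold change 0.98, SE 0.28, adjusted p 0.012) and 1.89-fold lower in CSF3R-first than in CSF3R-only (-0.92, SE 0.28, adjusted p 0.020). The latter call was lost without CSF3R-only B (adjusted p 0.051) or CSF3R-first B (adjusted p 0.088). CEBPA-first against CSF3R-only gave 0.06 (SE 0.25, adjusted p 0.83), and its sign turned without CSF3R-only A (-0.0233) or CEBPA-first C (-0.157).

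**Figure D2:**
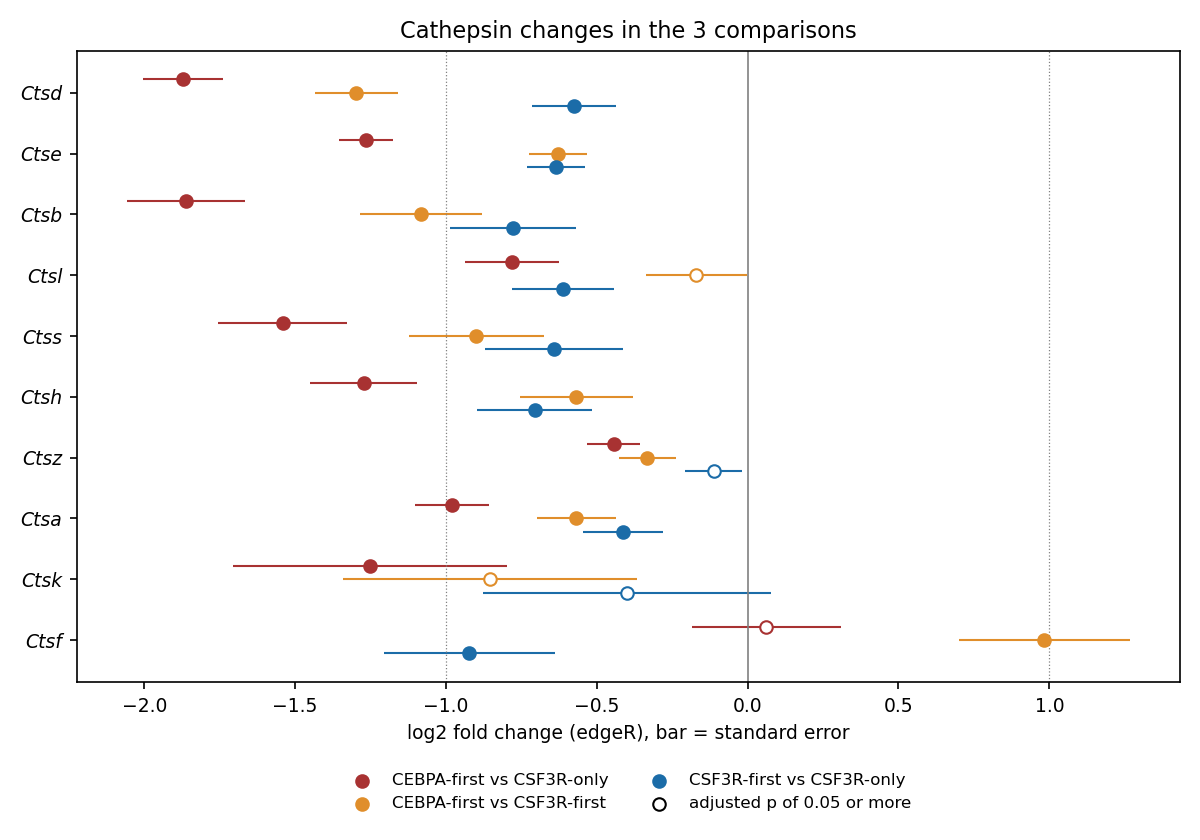
Log2 fold change of the 10 cathepsins in the 3 comparisons (horizontal axis, points with standard error bars, filled where edgeR's adjusted p was under 0.05, dotted lines at 2-fold). Ctsd and Ctsb lay farthest left at -1.87 and -1.86 in CEBPA-first against CSF3R-only, and Ctsf alone lay right of 0 in the comparison of the orders, at 0.98.

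Ctsh and Ctsz trim peptides from their ends, Ctsh as an aminopeptidase and Ctsz (cathepsin X) as a carboxypeptidase. Ctsh (ENSMUSG00000032359, chr9:90054152-90076089, plus strand) stood at 114, 119.6, 82.9 and 105 CPM in CSF3R-only A to D, 87.2, 53.5 and 53.0 CPM in CSF3R-first A to C and 49.3, 39.6, 51.3 and 34.2 CPM in CEBPA-first A to D. CSF3R-first A lay inside the CSF3R-only range, and the gap between CSF3R-first C and CEBPA-first C was small. Ctsh was 2.42-fold lower in CEBPA-first against CSF3R-only (log2 fold change -1.27, SE 0.18, adjusted p 2.5e-05). It was lower than in CSF3R-first by 0.57 (SE 0.19, adjusted p 0.024), a call lost without CSF3R-first A (-0.287, adjusted p 0.17), CEBPA-first B (adjusted p 0.065) or CEBPA-first D (adjusted p 0.062). CSF3R-first against CSF3R-only fell by 0.71 (SE 0.19, adjusted p 0.010), a call lost without CSF3R-first B (adjusted p 0.055) or C (adjusted p 0.052).

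Ctsz (ENSMUSG00000016256, chr2:174427493-174439039, minus strand) changed least among the members that passed. It stood at 677, 700.2, 587 and 645 CPM in CSF3R-only A to D, 701, 577 and 533 CPM in CSF3R-first A to C and 514, 467, 474 and 464 CPM in CEBPA-first A to D. CEBPA-first lay below all other samples, and CSF3R-first extended on either side of the CSF3R-only range. Ctsz was 1.36-fold lower in CEBPA-first against CSF3R-only (log2 fold change -0.44, SE 0.09, adjusted p 0.0005) and 1.26-fold lower than in CSF3R-first (-0.33, SE 0.09, adjusted p 0.012), the latter lost without CSF3R-first A (-0.207, adjusted p 0.060). CSF3R-first and CSF3R-only differed by -0.11 (SE 0.10, adjusted p 0.37), which became -0.233 (adjusted p 0.033) without CSF3R-first A.

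Ctsa (ENSMUSG00000017760, chr2:164832873-164841032, plus strand), the carboxypeptidase that protects the lysosomal enzymes beta-galactosidase and neuraminidase in a complex, stood at 719.7, 713, 599 and 657 CPM in CSF3R-only A to D. CSF3R-first A to C stood at 646, 430.0 and 439 CPM and CEBPA-first A to D at 369, 326, 360.4 and 308 CPM. CEBPA-first lay below all other samples, and CSF3R-first A lay within the CSF3R-only range. Ctsa was 1.97-fold lower in CEBPA-first against CSF3R-only (log2 fold change -0.98, SE 0.12, adjusted p 9.8e-06) and 1.48-fold lower than in CSF3R-first (-0.57, SE 0.13, adjusted p 0.0036), the latter being -0.347 without CSF3R-first A. The fall of 0.41 in CSF3R-first against CSF3R-only (SE 0.13, adjusted p 0.024) was lost without CSF3R-only A or B, without CSF3R-first B or C (adjusted p 0.054 to 0.12), and with only the compared groups in the fit (adjusted p 0.055). Of Ctsa's exon bases, 82.6% lie outside its neighbours on the opposite strand, Neurl2 and Pltp.

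The CSF3R-first samples did not take the same place between the other groups for each member. On a scale where the CSF3R-only mean log2 CPM is 0 and the CEBPA-first mean is 1, the CSF3R-first mean lay at 0.268 for Ctsz, 0.315 for Ctsd, 0.436 for Ctsb, 0.439 for Ctsk, 0.441 for Ctss, 0.444 for Ctsa, 0.503 for Ctse, 0.573 for Ctsh and 0.833 for Ctsl. No place was given for Ctsf, whose CSF3R-only and CEBPA-first means lay too close to set the scale. Replicate A of CSF3R-first lay closer to CSF3R-only than B and C for 8 members, at -0.387 (Ctsk) to 0.247 (Ctsl), while B and C lay at 0.375 to 1.40 for the same members. Ctse went against this pattern, with A at 0.551, B at 0.558 and C at 0.400.

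**Figure D3:**
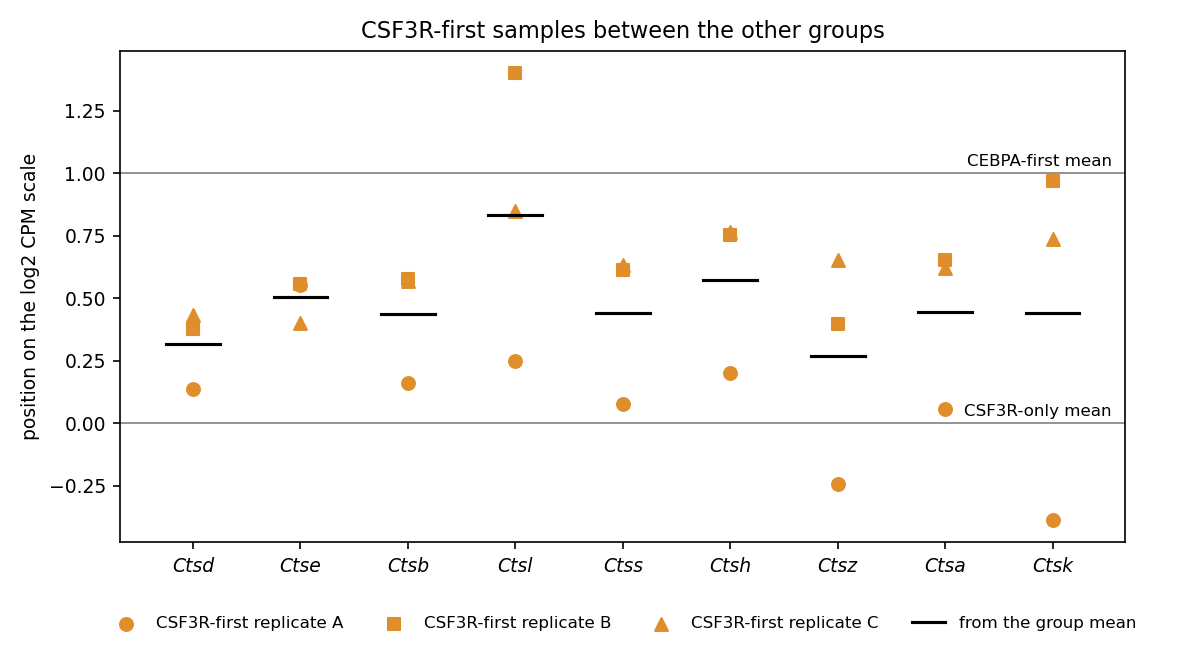
Place of each CSF3R-first replicate (orange symbols) and of the group mean (black bar) on a log2 CPM scale set to 0 at the CSF3R-only mean and 1 at the CEBPA-first mean, for 9 cathepsins. Replicate A (circles) lay lowest for 8 of the 9 genes, and for Ctse the 3 replicates stayed between 0.400 and 0.558.

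The replicates of a group shared their order across most members. Replicate A was the highest CSF3R-first sample for 8 of the 10 members, the exceptions being Ctse and Ctsf, against 40.2% of all tested genes. In CEBPA-first, replicates A and C lay above B and D for 9 of the 10, the exception being Ctse, against 20.6% of tested genes. Replicate C was the lowest CSF3R-only sample for 7 members, against 25.6% of tested genes, and the highest for Ctse. The summed monocyte and macrophage markers had the same orders, at 2850, 1660 and 1800 CPM in CSF3R-first A to C, at 1330, 1110, 1310 and 957 CPM in CEBPA-first A to D and at 2940 CPM in CSF3R-only C against 3350 to 3740 CPM in the other CSF3R-only samples. The neutrophil markers had them too, with sums of 23600, 13600 and 16400 CPM in CSF3R-first A to C, 8070, 6590, 8190 and 6130 CPM in CEBPA-first A to D and 24300 CPM in CSF3R-only C against 25900 to 29700 CPM in the other CSF3R-only samples. The erythroid, megakaryocyte, and mast cell and basophil sums ran otherwise. CSF3R-first A was their lowest CSF3R-first sample, at 104, 328 and 1030 CPM. CSF3R-only C was their highest CSF3R-only sample, at 345, 1150 and 2630 CPM. CEBPA-first D was their highest CEBPA-first sample, at 39.6, 154 and 1380 CPM. The part of any of these cells in the members' levels was not tested. Without CSF3R-first A, 10 members were called lower in CSF3R-first than in CSF3R-only and 6 differed between the orders, whereas without CSF3R-first B only 3 (Ctsd, Ctse and Ctsl) were called lower against CSF3R-only. Without CSF3R-only B or CSF3R-first C, 5 were. Over all genes, the calls of CSF3R-first against CSF3R-only moved from 6703 to 7499 without CSF3R-first A and to 4620 without CSF3R-first B, and those between the orders from 7578 to 6032 without CSF3R-first A.

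Levels were compared among the 10 members only, per kilobase of exon. In CSF3R-only, Ctsd led at 1046 ± 80.0 CPM per kilobase (SD, n = 4), ahead of Ctss at 574 ± 79.8, Ctsb at 494 ± 53.4 and Ctsz at 453 ± 33.9, and the samples of these last 3 overlapped from each to the next. Ctsa followed at 143 ± 11.9, Ctsl at 117 ± 6.21, Ctsh at 23.4 ± 3.57, Ctse at 4.12 ± 0.304, Ctsk at 1.75 ± 0.356 and Ctsf at 0.220 ± 0.0461, each without overlap with the next. In CEBPA-first Ctsz led at 333 ± 16.2 CPM per kilobase (n = 4), ahead of Ctsd at 286 ± 39.5, Ctss at 197 ± 50.1 and Ctsb at 136 ± 30.6, while Ctse was at 1.71 ± 0.120, Ctsk at 0.743 ± 0.409 and Ctsf at 0.231 ± 0.0718. There Ctsd overlapped Ctss and Ctss overlapped Ctsb, Ctsa overlapped Ctsl, and Ctsk overlapped Ctsf. CSF3R-first (n = 3) was led by Ctsd at 702 ± 150 CPM per kilobase, followed by Ctsz at 419 ± 60.6. The order depends on the length used, since per kilobase of coding sequence Ctsb ranked first in every group and Ctsl took the fourth place, while Ctsh, Ctse, Ctsk and Ctsf kept the last places in every group by either length. As shares of the counts of all 10 members, Ctsb and Ctsd together made up 45.7% to 50.3% in CEBPA-first, 59.6% to 61.5% in CSF3R-first and 63.1% to 66.1% in CSF3R-only. The share of Ctsz averaged 7.74% in CSF3R-only and 15.8% in CEBPA-first, and that of Ctsl 9.08% and 14.4%.

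The genes whose log2 CPM profiles over the 11 samples were most like that of Ctse, among 9148 genes whose average log2 CPM was 3 or more, were Acss2 (Pearson r 0.996), Cd55 (0.992), Map2k3 (0.991), Mylk (0.991) and Hdc (0.990). These coefficients are descriptions, since the 11 points fall into 3 groups. Acss2, an acetyl-CoA synthetase, averaged 28.0, 19.0 and 13.3 CPM in the groups, from CSF3R-only down to CEBPA-first. Hdc, the histamine-forming enzyme of mast cells and basophils, averaged 499.8, 268 and 152 CPM.

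Of 13 further cathepsin genes, 5 were expressed enough to test and 8 were not. In CEBPA-first against CSF3R-only 3 of the 5 were lower and 2 higher, against 36.6% and 35.4% of all tested genes, with a median log2 fold change of -0.635. Ctsg, a serine protease stored in the azurophil granules of neutrophil precursors, was highest in CEBPA-first at 896 ± 30.1 CPM (SD, n = 4), followed by CSF3R-first at 617.7 ± 64.7 CPM (n = 3) and CSF3R-only at 339 ± 37.5 CPM (n = 4), without overlap. Its log2 fold change was 1.40 against CSF3R-only (SE 0.09, adjusted p 3.1e-08) and 0.54 against CSF3R-first (SE 0.10, adjusted p 0.00074). Ctsc, which activates such granule proteases, went the other way, from 1568 ± 145 to 1100.4 ± 241 to 1009.8 ± 125 CPM, and was lower in CEBPA-first against CSF3R-only (-0.63, SE 0.13, adjusted p 0.00056) but did not pass between the orders (-0.12, adjusted p 0.48). Ctso (-1.27, adjusted p 4.4e-07) and Ctsw (-1.13, adjusted p 0.0011) were lower in CEBPA-first against CSF3R-only. The other gene of the 5 is Ctsj, whose mean was 0.187 CPM in CSF3R-only and 0.591 CPM in CEBPA-first (log2 fold change 1.66, adjusted p 0.012) and which is named to complete the count, after its values were seen. Between the orders 1 of the 5 was higher and 1 lower, and in CSF3R-first against CSF3R-only 1 was higher and 2 were lower, near the 48.3% and 42.7% of all genes called.

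Most genes that inhibit cathepsins were lower in CEBPA-first as well. Of 11 listed, 10 were tested, and in CEBPA-first against CSF3R-only 9 were lower and 1, Serpinb1a, was higher, against 36.6% and 35.4% of all tested genes, with a median log2 fold change of -1.57. The largest falls were in the stefin A genes, inhibitors of cysteine cathepsins that are abundant in maturing neutrophils, Stfa3 (-6.76, SE 0.27, adjusted p 7.2e-10), Stfa2 (-5.31, SE 0.21), Stfa1 (-5.19, SE 0.21) and Stfa2l1 (-4.91, SE 0.20). Stfa3 averaged 1.59 CPM in CEBPA-first, 24.8 CPM in CSF3R-first and 170.1 CPM in CSF3R-only. These genes are close copies of one another and reads may have been split between them. Cstb, the cytosolic stefin B, was lower by 1.32 (SE 0.15, adjusted p 3.2e-06) and the secreted cystatin C gene Cst3 by 0.64 (SE 0.12, adjusted p 0.00029). Between the orders 7 were lower and none higher (24.3% of all genes lower), and in CSF3R-first against CSF3R-only 7 were lower and 1 higher (21.1% of all genes lower).

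Of 10 tested genes of lysosomal sorting and processing, 3 were higher, 4 lower and 3 did not pass in CEBPA-first against CSF3R-only, with a median of -0.0997. These counts were near those of all tested genes, of which 35.4% were higher and 36.6% lower. On the log2 scale, Sort1, a sorting receptor, was lower by 1.24 (SE 0.14, adjusted p 3.6e-06) and Lgmn, the legumain protease that processes cathepsin precursors, by 1.07 (SE 0.20, adjusted p 0.00031). The mannose 6-phosphate receptor M6pr was lower by 0.23 (SE 0.06, adjusted p 0.0048), a call lost with scaling by library size alone (-0.0965, adjusted p 0.1) and without the filter on low counts (-0.155, adjusted p 0.1). Its larger relative Igf2r gave -0.28 without passing (SE 0.15, adjusted p 0.11), but passed with the replicate block (adjusted p 0.048). Gnptab, a subunit of the enzyme that makes the mannose 6-phosphate tag, was higher by 0.50 (SE 0.09, adjusted p 0.00031). Between the orders 1 of the 10 was higher and 2 were lower (48.3% of all genes called), and in CSF3R-first against CSF3R-only 2 were higher and 1 was lower (42.7% called). The 3 called between the orders became 5 with scaling by library size alone and 5 without CEBPA-first C, and the 3 called in CSF3R-first against CSF3R-only became 5 without CSF3R-first A and 1 without CSF3R-first B.

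Partners and substrates of the members were mostly lower in CEBPA-first. Of 10 tested, 9 were lower than in CSF3R-only (36.6% of all genes), none was higher and Neu1 did not pass (-0.16, adjusted p 0.074), with a median of -1.22. Neu1 passed in 5 of the alternatives, the replicate block among them (adjusted p 0.026 to 0.049). Products of MHC class II genes meet antigen in the compartment where Ctss acts. On the log2 scale, H2-Eb1 was lower by 2.11 (SE 0.20), H2-Aa by 1.91 (SE 0.21) and the invariant chain gene Cd74 by 1.75 (SE 0.19, adjusted p 3e-06). Glb1, the beta-galactosidase held in complex by Ctsa, was 2.83-fold lower (SE 0.09 on the log2 scale, adjusted p 2.3e-08). Psap, the saposin precursor, was 2.19-fold lower (log2 fold change -1.13, SE 0.18, adjusted p 8.2e-05). Between the orders 8 of the 10 were lower (24.3% of all genes), and 8 were lower in CSF3R-first against CSF3R-only (21.1% of all genes), a count that was 4 without CSF3R-first B.

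Of 12 genes for the lysosomal membrane, its acidification and the TFE factors, 11 were lower in CEBPA-first against CSF3R-only and 1, Atp6v1h, was higher, against 36.6% and 35.4% of all tested genes, with a median of -0.907. The largest differences were in Mitf (-1.90, SE 0.16, adjusted p 2.9e-07), a relative of TFEB, in Cd68 (-1.87, SE 0.20, adjusted p 2.3e-06), a macrophage lysosomal glycoprotein that also stands in the monocyte and macrophage list, in Atp6v0d2 (-1.57, SE 0.33, adjusted p 0.00088), a proton pump subunit, and in Tfeb (-1.35, SE 0.12, adjusted p 4.2e-07). Tfeb averaged 24.6 CPM in CEBPA-first, 41.2 CPM in CSF3R-first and 62.6 CPM in CSF3R-only. Between the orders 10 were lower and none higher (24.3% of all genes lower), and in CSF3R-first against CSF3R-only 9 were lower and none higher (21.1% of all genes lower).

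**Figure D4:**
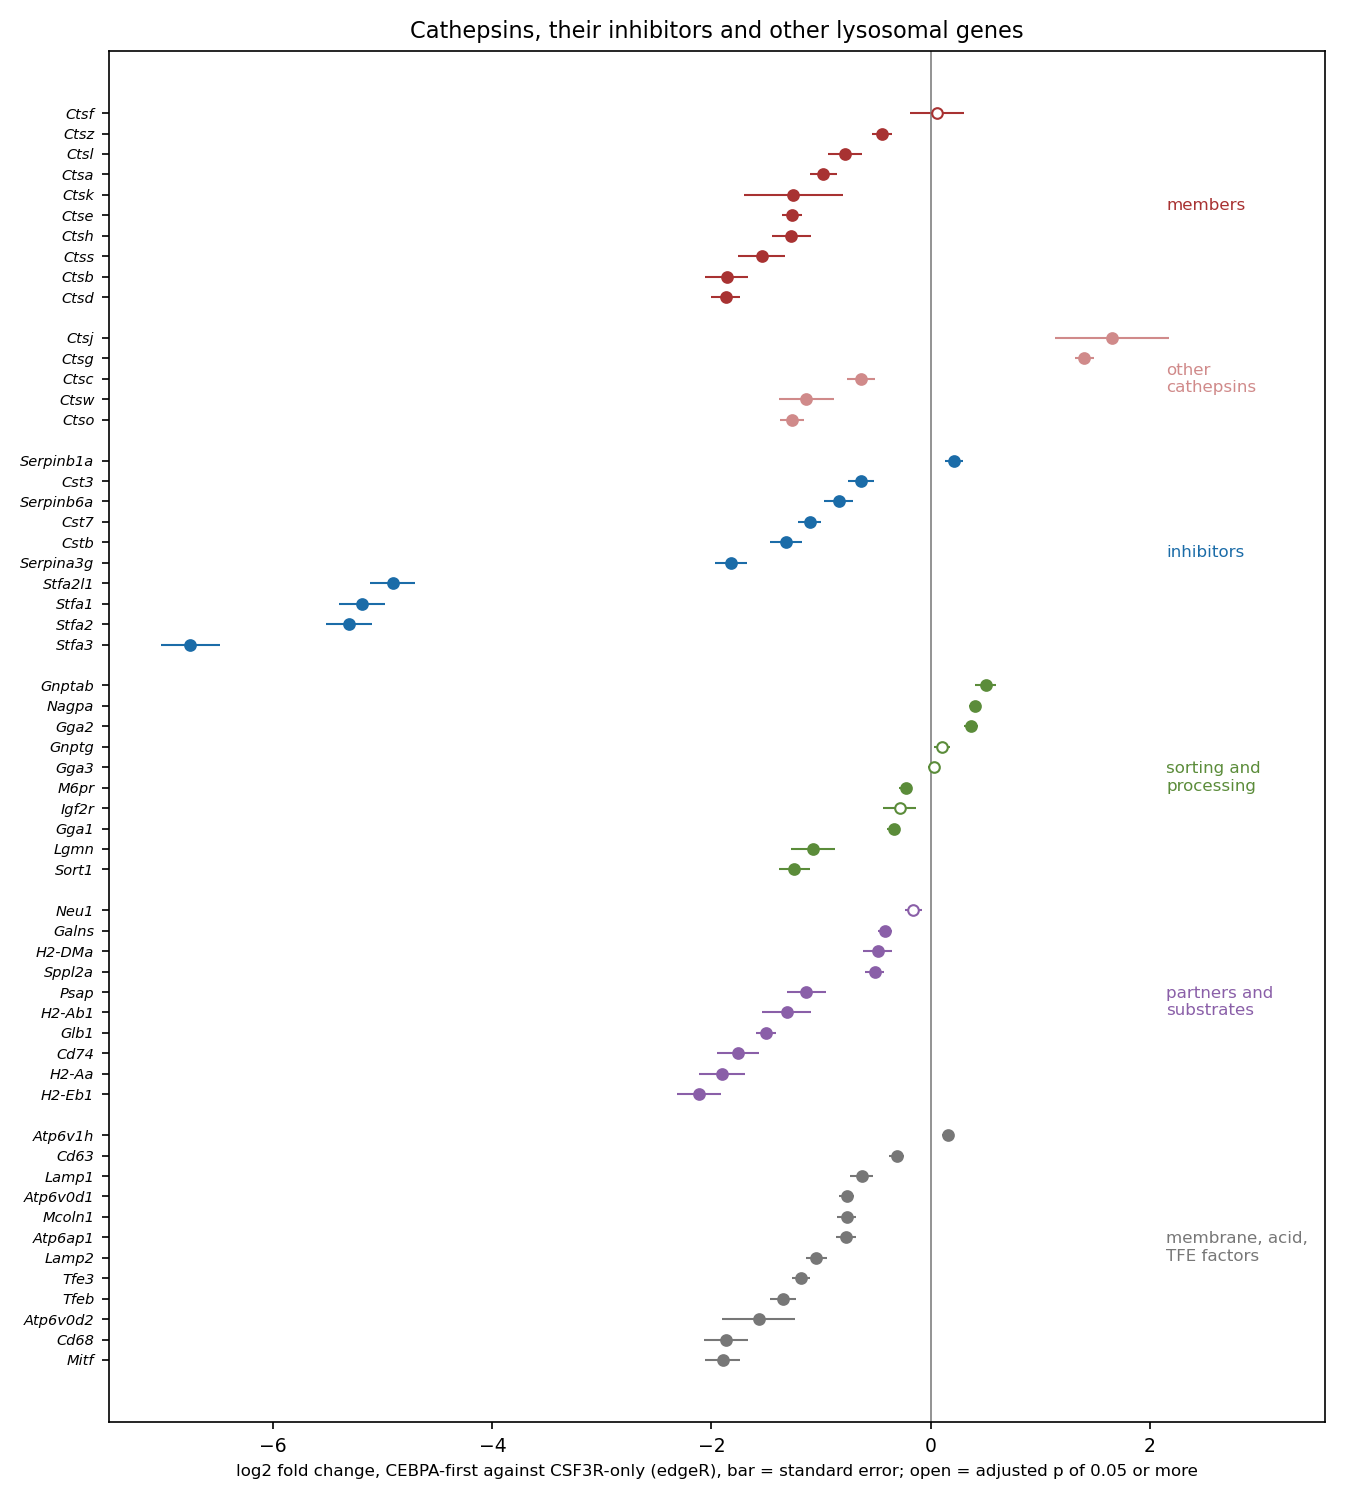
Log2 fold change of CEBPA-first against CSF3R-only for the 10 cathepsins and the tested genes of the other lists (horizontal axis, standard error bars, filled where edgeR's adjusted p was under 0.05). The stefin A genes lay farthest left, from -6.76 to -4.91, and Ctsg lay at 1.40 among cathepsins that were mostly left of 0.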

How the data were processed

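Raw gene counts of the 11 samples were used as deposited; the authors trimmed the reads with Trimmomatic and aligned them with STAR, and their processing notes name mm10 and DESeq2. The counting tool, annotation and strand setting are not given in the sources used here, so reads of overlapping genes cannot be told apart. SMARTer libraries were sequenced as single reads. Identifiers were matched to GENCODE M21 (51719 of 51912). After TMM normalization and the filterByExpr filter, 15703 genes remained and were tested in 1 fit of the 3 groups with edgeR 4.0.16 (quasi-likelihood, Benjamini-Hochberg adjustment over all genes) in R 4.3.3. Each SE is the log2 fold change over the square root of F, and 2 was the prior count of log2 CPM. The test was run on simulated counts in which 200 genes changed by 1.5 on the log2 scale in CEBPA-first. Far more genes were called in the data, so that run does not measure the test's error here. Near-identical stretches (100 bp at 97% identity) came from BLAST 2.17.0, and figures from matplotlib 3.10.9. Named genes were all members, Ctsc and Ctsg, up to 4 genes a list with the largest change of at least 2-fold among those averaging a log2 CPM of 0 or more, list genes that bind or process a member, and 5 profiles most like Ctse. Alternatives were DESeq2 1.42.0, other scalings and filters, only the compared groups, glmTreat, a replicate block, coding length and each sample left out. The members and lists were chosen with earlier results of these data known.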

Additional observations from a re-analysis of the deposited data

Results flagged for a closer look

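Of 70 groups of 4 samples examined for a sample far from the rest, 2 held one, where chance gives about 1 in 20 (3.5). For Ctse, CSF3R-only C stood at 14.49 CPM with the other CSF3R-only samples at 12.48 to 12.7 CPM, a gap of 0.892 of the group's range. For Igf2r, CEBPA-first D stood at 28.66 CPM with the other CEBPA-first samples at 44.18 to 46.0 CPM, a gap of 0.895 of the range.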

How the results depend on the processing

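Of 210 values of members under other settings, 208 kept their direction and their side of the threshold, and 2 fell short of it, as given above for Ctss and Ctsa. Of 330 values with a sample left out, 302 kept both, 22 fell short, 3 newly passed and 3 changed sign. Members called with a 2-fold difference in either direction between the orders numbered 2 as reported, 0 when glmTreat tested against 2-fold, and 1 to 4 with a sample left out, where 1 was without CSF3R-first A and 4, Ctsf higher among them, without CSF3R-first C. For CSF3R-first against CSF3R-only the 2-fold count was 0 as reported, 1 with the replicate block and 0 to 2 with a sample left out, and the count by adjusted p ranged from 3 to 10. Sign changed with a sample left out for Ctsf in CEBPA-first against CSF3R-only (-0.157 to 0.210) and, between the orders, for Ctsl (-0.362 to 0.0973), Ctsc (-0.212 to 0.0756) and Igf2r (-0.117 to 0.126). The Igf2r value was also 0.0152 with library size alone and 0.0352 with the replicate block. The causes of these changes were not tested. Scaling by library size alone moved the median of all genes in CEBPA-first against CSF3R-only to 0.129. Genes called at 2-fold over all genes numbered 4244, 2016 and 1045 in the 3 comparisons (CEBPA-first against CSF3R-only, between the orders, CSF3R-first against CSF3R-only), 2495, 799 and 201 with glmTreat, and 1219 and 566 in the last 2 with at least 10 counts in every sample. The deviations of same-letter samples from their group means correlated at -0.107 to 0.362, over 0.1 in 7 of 10 pairs but not in all, and the same letter was the best match in 12 of 20 checks against another group; the labels do not say what a letter shares, so samples were not treated as paired. With the replicate block, members called numbered 9, 8 and 8, as without it. Depth limits Ctsf and Ctsk most, at 22 to 194 counts a library.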
